A study of Mus musculus with 12 samples.

Results

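Inhibitory receptors and siglecs that restrain signals of the B cell receptor or pre-B cell receptor were followed in pre-B cell lines with and without BCR-ABL1. They were chosen by gene symbol: Cd22, Cd72, Pecam1, Lair1, Pirb, Siglecg, Cd5, Btla, Ceacam1 and Cd300a. All 10 were found among the 51826 genes of the count table, and 8 of them were among the 15038 genes with enough counts to be tested. Lair1 and Cd300a were too low for the test and are described by their counts.

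Most of these receptors carry a tyrosine motif in their cytoplasmic tail, the ITIM. When the kinase LYN phosphorylates it, the phosphatases SHP-1 (Ptpn6) and SHIP-1 (Inpp5d) bind to it and dampen the signal of a neighbouring activating receptor. CD22 and Siglec-G are lectins of the siglec family that bind sialic acid on the cell surface, CD72 binds semaphorin 4D, and CD5 marks B-1a cells and T cells. In Philadelphia chromosome-positive leukemia the oncogenic kinase BCR-ABL1 signals in B cell precursors, the cells in which the pre-B cell receptor normally acts.

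The study sequenced RNA of 12 mouse pre-B cell lines, all made from bone marrow cells of 2 wildtype C57BL/6 mice grown with interleukin 7 (IL7). From each mouse 3 lines received the empty retroviral vector pMIG (EV), stayed in IL7 and were sorted for GFP, and 3 lines received BCR-ABL1 and were kept without IL7 for 1 week until they were transformed. Each group thus held 6 lines, named 1A to 1C for mouse 1 and 2A to 2C for mouse 2, with the digit read as the mouse. BCR-ABL1, IL7 withdrawal and the GFP sort, which is stated for EV lines only, cannot be told apart. The human BCR-ABL1 transcript is not in the mouse annotation and was not measured, and because these are bulk samples, fewer cells of a type and less RNA per cell cannot be told apart.

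Total counts per line lay between 34791011 (EV 2A) and 66011225, with a median of 52755639. Levels are given in CPM, the counts of a gene scaled to the library size with TMM, and changes were tested with edgeR's glmTreat against a 1.5-fold change with adjustment over all tested genes (FDR). All 10 B lineage markers passed the count filter in these lines, whereas no myeloid, mast cell, endothelial or stromal marker did. Of the T cell markers 2 of 8 passed, of the NK markers 1 of 4 and of the megakaryocyte markers 1 of 5. The EV lines of mouse 2 stood apart from each other: in 70.0% of all tested genes they had the largest spread of the 4 sets of lines by mouse and group, and so did all 8 tested receptors. The median SD of the receptors in log2 CPM was 0.848 in the EV lines of mouse 2, 0.177 in those of mouse 1, and with BCR-ABL1 it was 0.268 for mouse 1 and 0.0991 for mouse 2. EV line 2C was the lowest EV line for Cd22, Cd72, Pecam1, Siglecg, Btla and Ceacam1.

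Cd72 and Cd22 fell in BCR-ABL1 lines, and no receptor of the group rose in the comparison of all 12 lines. These were 2 of the 8 tested receptors, while 6.49% of all tested genes were called lower and 5.99% higher. No receptor was higher even at an unadjusted glmTreat p under 0.05, and DESeq2 also called none higher. The fitted log2 fold change was below 0 for all 8 tested receptors, with a median of -0.42, whereas the median of all tested genes was -0.02 and 51.7% of them were below 0. This shift depended on EV 2B: without that line 6 of the 8 receptors were below 0 and their median was -0.13. For the 6 receptors other than Cd72 and Cd22 the values lay between -0.84 and -0.05 and did not pass the test.

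**Figure D1:**
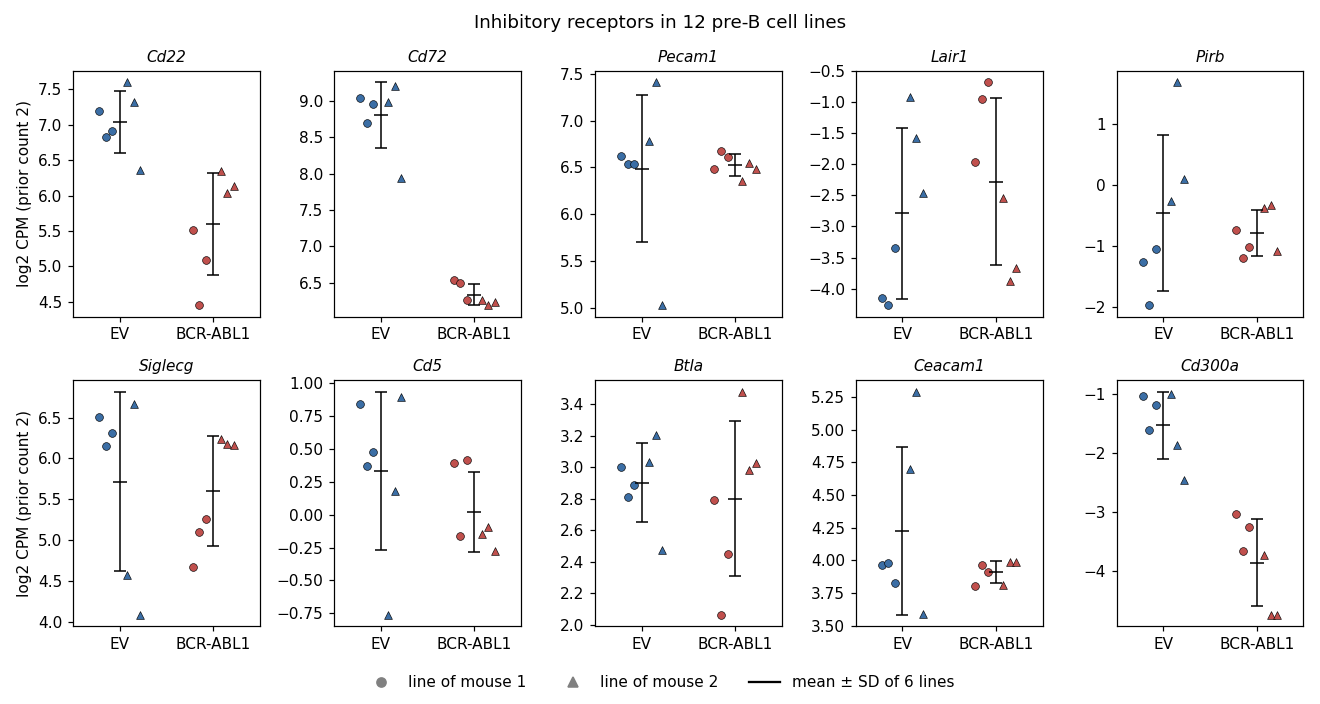
Level of each receptor in log2 CPM (y axis of each panel, own scale) in 6 EV and 6 BCR-ABL1 lines. Circles are lines of mouse 1, triangles lines of mouse 2, and bars give the mean ± SD of 6 lines. Cd72 separates the groups by the widest gap, Lair1 moves in opposite directions in the mice, and the EV lines of mouse 2 scatter most for the 8 tested receptors.

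Cd72, a C-type lectin-like receptor that recruits SHP-1, was the most abundant receptor of the group in EV lines. It lies at chr4:43446462-43454628 on the minus strand (GRCm38). EV lines ranged from 244 to 592 CPM with a median of 502, and BCR-ABL1 lines from 73.1 to 92.5 CPM with a median of 76.7. The lowest EV line, 2C, was still well above every BCR-ABL1 line, and the BCR-ABL1 lines of both mice lay close together. The mean fell from 463 ± 121 to 80.8 ± 8.29 CPM (SD, n = 6 lines each), which is 5.73-fold lower (log2 fold change -2.52, SE 0.20, edgeR FDR 7.65e-06). In mouse 1 the log2 fold change was -2.46 and in mouse 2 it was -2.56 (edgeR FDR 2.56e-08 and 0.00971). With mouse as replicate block Cd72 and Cd22 were again the receptors called, while 7.18% of all tested genes were called lower and 7.49% higher. The exact permutation test over the 12 lines gave a two-sided p of 0.00216, the smallest that 6 against 6 lines allow, which groups without overlap always give. Groups without overlap and lower in BCR-ABL1 lines were found for Cd72 and Cd22 among the tested receptors and for 13.5% of all tested genes.

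On the opposite strand Cd72 shares 1423 exon bases with Tesk1, a kinase gene. Tesk1 also fell, from 49.3 ± 4.31 to 17.4 ± 1.32 CPM (SD, n = 6 lines each; log2 fold change -1.50, SE 0.07, edgeR FDR 2.27e-06). The libraries were strand-specific, but the strand setting of the counting is not given in the sources used here, so reads of the shared stretch cannot be assigned to either gene with certainty. Even the highest Tesk1 level, 57.8 CPM, was below the lowest Cd72 level.

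Cd22, the siglec CD22 that dampens calcium signals of the B cell receptor, fell less and less evenly. The gene is at chr7:30865402-30880342 on the minus strand. In mouse 1 the EV lines had 146, 113 and 121 CPM and the BCR-ABL1 lines 45.7, 21.8 and 34.1 CPM. In mouse 2 the EV lines had 195, 160 and 82.4 CPM and the BCR-ABL1 lines 81.4, 65.9 and 69.9 CPM. The groups did not overlap, but EV 2C and BCR-ABL1 2A almost touched. The mean fell from 136 ± 39.3 to 53.1 ± 23.0 CPM (SD, n = 6 lines each), 2.56-fold lower (log2 fold change -1.36, SE 0.34, edgeR FDR 0.0345). The exact permutation p over the 12 lines was 0.00216, which follows from the lack of overlap.

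The call for Cd22 depended on single lines and on the tool. It passed in mouse 1 alone (log2 fold change -1.89, edgeR FDR 0.000123) and not in mouse 2 alone (-0.99, edgeR FDR 0.272), where 2.65% of genes were called lower. The difference between the mice was itself not called (0.90 in mouse 2 minus mouse 1, edgeR interaction FDR 0.193). DESeq2 gave an FDR of 0.119, and edgeR's FDR was 0.0654 without EV 1A, 0.0655 without EV 2A, 0.0574 without EV 2B, 0.0648 without BCR-ABL1 1A and 0.0766 without BCR-ABL1 1C. Without EV 2C, the EV line nearest to the BCR-ABL1 lines, Cd22 had a log2 fold change of -1.46 (edgeR FDR 0.0168) and Cd72 one of -2.65 (edgeR FDR 2.16e-07). An antisense gene, Gm29439, shares 479 exon bases with Cd22 and had at most 3 counts in any line.

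The promoters of both receptors that fell are shown because they can be read beside their change: 300 bases around the RefSeq start on GRCm38.p6, minus strand, 5′ to 3′, with matches to the motifs named next in capitals.
Cd72, chr4:43454577-43454876: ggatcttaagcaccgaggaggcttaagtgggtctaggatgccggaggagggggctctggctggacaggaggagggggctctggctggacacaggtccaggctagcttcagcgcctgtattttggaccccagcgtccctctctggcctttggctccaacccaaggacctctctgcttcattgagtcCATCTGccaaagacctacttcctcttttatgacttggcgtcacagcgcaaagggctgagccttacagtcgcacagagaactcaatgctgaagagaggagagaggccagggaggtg
Cd22, chr7:30878979-30879278: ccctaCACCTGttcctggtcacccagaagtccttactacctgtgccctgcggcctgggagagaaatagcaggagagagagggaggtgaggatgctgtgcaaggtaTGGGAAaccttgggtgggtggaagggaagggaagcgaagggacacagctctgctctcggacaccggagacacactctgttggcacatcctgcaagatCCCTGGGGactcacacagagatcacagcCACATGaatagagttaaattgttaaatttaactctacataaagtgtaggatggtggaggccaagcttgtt
Searched on both strands were CANNTG (E-box), CCCNNGGG (EBF), TGGGAA (Ikaros), TTCNNNGAA (STAT), GGAAGTG (ETS) and TGTTTAC (FOXO). The Cd72 window held a single match, the E-box CATCTG at bases 186 to 191. The Cd22 window held the EBF match CCCTGGGG at bases 203 to 210, the Ikaros match TGGGAA at bases 106 to 111, and 2 E-boxes, none overlapping another. This Cd22 window lies inside the GENCODE span of the gene. Of all 32851 RefSeq promoters 72.31% held an E-box, 13.67% the EBF letters and 25.56% the Ikaros letters. RefSeq gave a promoter for 9 of the 10 receptors, all but Pecam1. Siglecg had windows for 2 starts, which makes 10 windows. Of these 9 held an E-box, 6 the Ikaros letters and 2 the EBF letters (Cd22 and Ceacam1), the upstream Siglecg window held no match, and 0 held the STAT, ETS or FOXO letters, which 8.298%, 11% and 3.65% of all promoters held. A match of letters is a description and not a site.

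Siglecg, another inhibitory siglec of B cells, whose loss in mice is known to expand B-1a cells, had a pattern that differed by mouse. The gene is at chr7:43408204-43418358 on the plus strand. In mouse 1 the EV lines had 91.1, 71.4 and 79.2 CPM and the BCR-ABL1 lines 25.4, 34.2 and 38.3 CPM. In mouse 2 the EV lines had 23.8, 102 and 16.9 CPM and the BCR-ABL1 lines 75.4, 72.5 and 71.8 CPM. All BCR-ABL1 lines of mouse 1 were below all its EV lines. In mouse 2 the BCR-ABL1 lines were nearly equal to each other and stood between EV 2B and the other EV lines. How many of all genes separate fully within 1 mouse was not counted, here and for the receptors below. Over all lines the change was small against its error (log2 fold change -0.28, SE 0.53, edgeR FDR 1.00).

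Taken by mouse, Siglecg fell in mouse 1 (log2 fold change -1.30, edgeR FDR 0.000261), where 12.2% of genes were called lower, and was 0.64 in mouse 2 (edgeR FDR 0.996), where 3.99% of genes were called higher. The interaction of mouse and group was 1.93 (mouse 2 minus mouse 1) with an edgeR FDR of 0.0990, so the difference was not called, while 16.9% of all tested genes had a called interaction. Likelihood ratio and DESeq2 fits called it (FDR 0.0397 and 0.0277), and so did the edgeR fits without EV 2B (3.15, FDR 1.57e-05, with 19.6% of genes called) and without EV 2C (1.52, FDR 0.0458, with 36% called). The exact permutation p of this difference, with labels exchanged within each mouse, was 0.0200. Its null is no change in either mouse, so it does not test whether the changes are equal. This p is unadjusted and was computed for all 10 receptors.

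**Figure D2:**
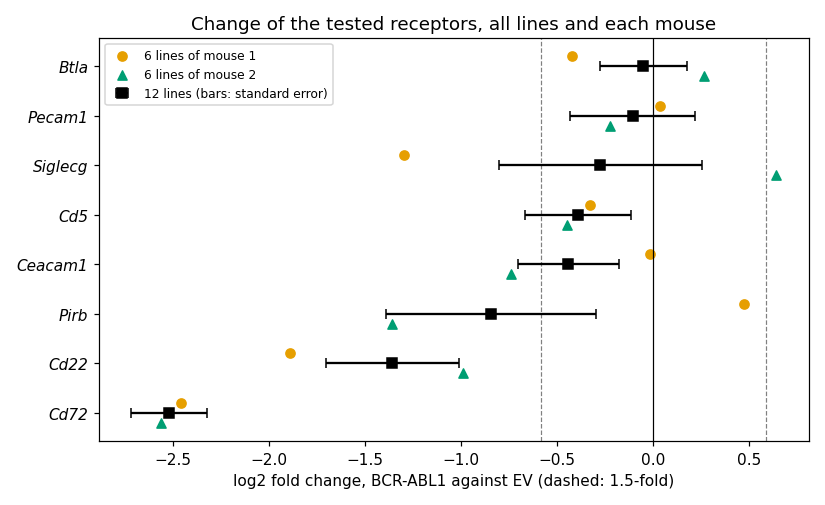
Log2 fold change of BCR-ABL1 against EV lines (x axis) for the 8 tested receptors. Squares with standard error bars use all 12 lines, circles the lines of mouse 1, triangles those of mouse 2, and dashed lines mark 1.5-fold. Cd72 lies close together in the mice (-2.46 and -2.56), whereas Siglecg and Pirb, and by less Btla and Pecam1, lie on opposite sides of 0.

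Pecam1, the adhesion receptor PECAM-1 (CD31) with ITIM tyrosines, had levels that overlapped between the groups. The gene is at chr11:106654217-106750628 on the minus strand. EV lines ranged from 32.6 to 170 CPM with a median of 95.8, and BCR-ABL1 lines from 81.9 to 102 CPM with a median of 91.3. The EV range was set by 2 lines of mouse 2, with 2C at the bottom and 2B at the top, and it enclosed every BCR-ABL1 line. The log2 fold change was -0.11 (SE 0.32, edgeR FDR 1.00), and without EV 2C it was -0.29 (edgeR FDR 1.00). Summed endothelial markers, of which none passed the filter, reached 2.42 CPM in EV 2A and 2.01 CPM in EV 2B. They were at 0.0902 CPM in EV 2C and at 0.332 to 0.715 CPM in the EV lines of mouse 1. In BCR-ABL1 lines they reached at most 0.166 CPM, and Cdh5 had no more than 1.57 CPM in any line. The part of endothelial cells in the Pecam1 level was not tested.

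Ceacam1, a carcinoembryonic antigen family adhesion receptor with ITIMs, also varied most in the EV lines of mouse 2. Its locus is chr7:25461707-25477603, minus strand. EV lines had 15.5, 15.7 and 14.1 CPM in mouse 1 and 25.9, 39.2 and 12.0 CPM in mouse 2. The 6 BCR-ABL1 lines lay between 14.0 and 15.8 CPM. Only EV 2A and EV 2B stood above this narrow band, and the change did not pass (log2 fold change -0.44, SE 0.26, edgeR FDR 1.00). Ceacam2, a near copy of the gene, had a mean of 0.0777 CPM in EV and 0.422 CPM in BCR-ABL1 lines.

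Btla, a receptor of the immunoglobulin superfamily that binds HVEM (Tnfrsf14), is at chr16:45224315-45257670 on the plus strand. Its EV lines ranged from 5.52 to 9.20 CPM with a median of 7.67, and its BCR-ABL1 lines from 4.14 to 11.1 CPM with a median of 7.39. The groups overlapped almost fully, and the log2 fold change was -0.05 (SE 0.23, edgeR FDR 1.00). In mouse 1 every BCR-ABL1 line was below every EV line, by as little as 6.90 against 6.97 CPM (log2 fold change -0.42). In mouse 2 the lines overlapped (0.26), and neither change was called.

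Cd5, a scavenger-type receptor that restrains antigen receptor signals, was close to the lower limit of the test. It is located at chr19:10717116-10739002 on the minus strand. EV lines ranged from 0.552 to 1.82 CPM with a median of 1.30, and BCR-ABL1 lines from 0.789 to 1.30 CPM with a median of 0.882. The groups overlapped, and the log2 fold change was -0.39 (SE 0.28, edgeR FDR 1.00). CD5 is also a T cell protein, and 2 of 8 T cell markers passed the filter, both called lower: Trac (29.1 to 0.664 CPM, edgeR log2 fold change -5.46) and Cd3d. Cd3d passed only through the EV lines where it is high, so its call is a description. Summed T cell markers lay between 10.4 and 42.0 CPM with EV and between 0.394 and 1.75 CPM with BCR-ABL1. Trac made up nearly all of the EV sums, with 9.99 of 10.4 CPM in EV 2C. Cd28 alone had a higher mean with BCR-ABL1 (0.217 against 0.136 CPM). Cd3e had at most 4 counts in any line and Trbc2 was at 0 in all lines. The part of T cells in the Cd5 level was not tested.

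Pirb, the paired immunoglobulin-like receptor B that binds MHC class I, lies at chr7:3711409-3720391 on the minus strand. In mouse 1 the EV lines had 0.376, 0.217 and 0.445 CPM and the BCR-ABL1 lines 0.560, 0.397 and 0.454 CPM. In mouse 2 the EV lines had 0.797, 3.18 and 1.03 CPM and the BCR-ABL1 lines 0.732, 0.760 and 0.436 CPM. EV 2B alone was high. In mouse 2 every BCR-ABL1 line was below every EV line, by as little as 0.760 against 0.797 CPM. The log2 fold change over all lines was -0.84 (SE 0.55, edgeR FDR 0.691), with 0.47 in mouse 1 and -1.36 in mouse 2, and without EV 2B it was -0.032 (edgeR FDR 1.00). The exact permutation p of the difference between the mice was 0.0200, unadjusted and with no change in either mouse as its null. Of the activating Pira genes that resemble Pirb in sequence, Pira2 alone was in the table and reached at most 0.162 CPM, but reads of such copies may be split by the counting.

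Lair1, a collagen receptor with ITIMs at chr7:4003402-4063204 on the minus strand, was near the floor of 3 counts in several lines and moved in opposite directions in the mice. In mouse 1 the EV lines had 1, 1 and 4 counts and the BCR-ABL1 lines 13, 23 and 26 counts. In mouse 2 the EV lines had 16, 15 and 8 counts and the BCR-ABL1 lines 7, 2 and 2 counts. Every BCR-ABL1 line was thus above every EV line in mouse 1 and below every EV line in mouse 2, there by as little as 1 count. The difference of mean log2 CPM was 2.73 in mouse 1 and -1.71 in mouse 2, and its exact permutation p between the mice was 0.005, the smallest that exchange within mice allows. That p has no change in either mouse as its null, follows from the full separation in opposite directions and adds nothing to it. It is unadjusted and was computed for every receptor. Fitted without the count filter, the interaction was -5.67 (edgeR FDR 2.20e-08). That fit called the interaction for 7.96% of all genes and gave smaller FDRs for other receptors too. Siglecg had an edgeR FDR of 8.90e-21 there, against 0.0990 with the filter. In the fit of mouse 1 alone, in which 16.3% of genes were called higher, Lair1 passed the count filter only through the BCR-ABL1 lines where it is high, so its log2 fold change there (3.63) is a description.

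Cd300a, which binds phosphatidylserine and phosphatidylethanolamine and is best known on myeloid and mast cells, is at chr11:114890041-114904654 on the plus strand. EV lines had 24, 20, 26, 15, 12 and 8 counts and BCR-ABL1 lines 5, 2, 3, 2, 0 and 0 counts, in the order 1A to 2C. Every EV line was above every BCR-ABL1 line, and the counts of 0 in 2B and 2C allow levels of up to 0.0456 and 0.0623 CPM. Of all tested genes, 13.5% had groups without overlap and lower in BCR-ABL1 lines. The 105 against 12 counts gave a ratio of 8.50 after scaling, with a 95% counting interval from 4.67 to 17.0 that covers counting error only. The exact permutation p was 0.00216, which groups without overlap always give. The gene did not pass the filter. Without the filter, where 999 of 40750 genes were called lower, its log2 fold change was -2.97 (edgeR FDR 0.0108). In mouse 1 alone it passed only through the EV lines where it is high, so its value there (-2.46) is a description. The 10 myeloid markers summed to between 0.245 and 1.72 CPM with EV and between 0.182 and 0.593 CPM with BCR-ABL1. Of these, 5 had at most 3 counts in every line. Lyz2 alone had a higher mean with BCR-ABL1 (0.226 against 0.0478 CPM, not tested over all lines). The mean of Adgre1 was lower with BCR-ABL1, without overlap of the groups (0.00886 against 0.266 CPM, also not tested over all lines). The 5 mast cell and basophil markers summed to at most 0.276 CPM in any line. Myeloid sums were higher in the EV lines of mouse 2, at 0.695 CPM or more, than in any other line, and their part in the values of Cd300a, Lair1 and Pirb was not tested.

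Per length of merged exons (FPKM), the order of mean levels in EV lines was Cd72 at 135, Cd22 at 27.0, Pecam1 at 16.0, Siglecg at 13.3, Ceacam1 at 3.51, Btla at 2.22, Cd5 at 0.265, Pirb at 0.225, Cd300a at 0.0697 and Lair1 at 0.0229. In BCR-ABL1 lines it was Cd72 at 23.6, Pecam1 at 14.8, Siglecg at 11.0, Cd22 at 10.5, Ceacam1 at 2.59, Btla at 2.14, Cd5 at 0.202, Pirb at 0.124, Lair1 at 0.0334 and Cd300a at 0.00821. Neighbours in this order overlapped over their lines, except that Cd72 was clear of the next gene and Btla clear of Cd5 in both groups, and that in BCR-ABL1 lines Cd22 was clear of Ceacam1 and Pirb of Lair1. The move of Cd22 from the second to the fourth place was thus among genes whose levels overlap. The FPKM level of Cd72 was above that of 98.0% of tested genes in EV and of 85.5% in BCR-ABL1 lines, and that of Cd22 above 88.5% and 69.4%.

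The summed FPKM of the 10 receptors lay between 101 (EV 2C) and 264 (EV 2B) in EV lines and between 57.6 and 73.4 in BCR-ABL1 lines. Cd72 made up 65.6% to 70.8% of this sum in EV lines, 39.0% to 45.1% in BCR-ABL1 lines of mouse 1 and 30.5% to 31.2% in those of mouse 2. EV 2C had less than any other EV line, yet its share of Cd72 was the highest, at 70.8%. The level of Cd22 as a percent of that of Cd72 was 16.5 to 26.1 in EV lines, 16.4 to 33.6 in BCR-ABL1 lines of mouse 1 and 61.1 to 72.1 in those of mouse 2.

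**Figure D3:**
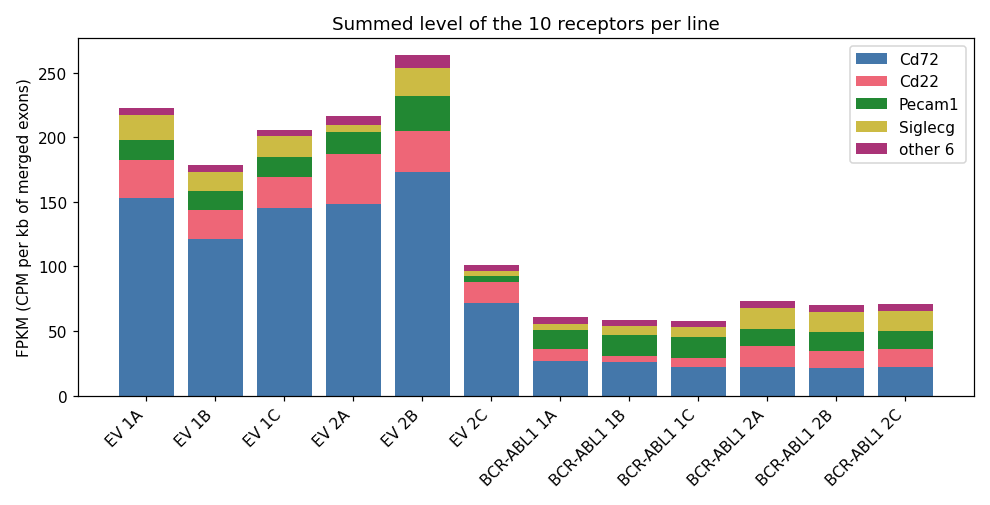
FPKM (y axis, stacked bars from 0) of Cd72, Cd22, Pecam1, Siglecg and the other 6 receptors in each of the 12 lines. Cd72 is the largest block in every line, and the sum is between 101 and 264 in EV lines and between 57.6 and 73.4 in BCR-ABL1 lines.

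Across the 12 lines the log2 CPM of Cd22 and Cd72 had a Pearson r of 0.81, that of Pecam1 and Ceacam1 0.72 and that of Cd22 and Btla 0.68, as descriptions over lines that share 2 groups and 2 mice. Among 9809 protein-coding genes whose log2 CPM averaged 1 or more, those most like Cd72 were Ocel1 (r 0.99), Dennd5b (0.99) and Lrba (0.99). Those most like Cd22 were Ffar1 (0.98), Tnfrsf19 (0.97) and Zmym6 (0.96). The pattern of Siglecg was most like that of Naip6 (0.93), Ankrd9 (0.93) and Btk (0.92), that of Pecam1 like A430078G23Rik (0.98), Vamp8 (0.95) and Ifi209 (0.95), and that of Ceacam1 like Cnp, Mylip and Stat3 (each 0.97). For the lower receptors the best values were smaller: Chchd5 (0.90), Csrp2 (0.90) and Ric1 (0.89) for Pirb, Xpnpep3 (0.89), Nfkbib (0.87) and Miga2 (0.87) for Cd5, and Ufsp2 (0.86), Edem3 (0.84) and Plekhb2 (0.83) for Btla.

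Of the kinases, phosphatases and adaptors that act at the ITIMs of these receptors, all 10 listed were tested, with 0 called higher and 1 lower, and the median log2 fold change was 0.00. Dok3, an adaptor that recruits SHIP-1, ranged from 119 to 440 CPM among EV lines, against 91.7 to 103 CPM with BCR-ABL1, and fell (log2 fold change -1.76, SE 0.28, edgeR FDR 0.00129). Ptpn6, the phosphatase that binds CD22 and CD72, had 199 to 438 CPM among EV lines, against 164 to 201 CPM with BCR-ABL1, and did not pass (log2 fold change -0.88, SE 0.17, edgeR FDR 0.0694), though it passed without EV 2C (-0.99, edgeR FDR 0.00138). Lyn did not pass either (-0.71, SE 0.23, edgeR FDR 0.445), and Inpp5d had a value of 0.01. In a test against no change, in which 48.5% of all tested genes were called, Lyn (edgeR FDR 0.0167) and Ptpn6 (edgeR FDR 0.000669) were called lower.

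Of 16 ligands of these receptors and enzymes that make or alter sialic acid, 13 were tested, with 0 called higher and 2 lower and a median of -0.25. St6gal1, the transferase that makes the α2,6-linked sialic acid bound by CD22, ranged from 180 to 332 CPM among EV lines, against 108 to 136 CPM with BCR-ABL1 (log2 fold change -1.08, SE 0.13, edgeR FDR 0.00278). Its groups did not overlap, and EV 2C was again the lowest EV line. Cmah, which converts the acetyl form of sialic acid to the glycolyl form preferred by mouse CD22, ranged from 26.6 to 374 CPM among EV lines, against 16.6 to 32.8 CPM with BCR-ABL1 (log2 fold change -2.35, SE 0.60, edgeR FDR 0.0314). The groups overlapped at EV 2C, and with mouse as replicate block the call was lost (edgeR FDR 0.0697). Without EV 2B the value was -1.53 (edgeR FDR 0.0576). Leaving out EV 2A or any BCR-ABL1 line but 1C also ended this call, with FDR between 0.0509 and 0.0668.

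Of 24 other inhibitory receptors of blood cells 23 were in the table and 8 were tested, with 1 called higher and 1 lower and a median of 0.92. Ctla4, an inhibitory receptor of T cells, had 0 to 6 counts per EV line, whereas lines with BCR-ABL1 had 9.39 to 29.4 CPM (log2 fold change 8.54, SE 0.47, edgeR FDR 1.27e-05), so that all 6 BCR-ABL1 lines were far above all EV lines. Ctla4 passed the count filter only through the BCR-ABL1 lines where it is high, so its call is a description. Clec12a was called lower (-2.44, edgeR FDR 0.0438) at a mean of 0.909 CPM in EV lines, but the mice differed (-4.11 in mouse 1 and -0.06 in mouse 2, edgeR interaction FDR 0.00233). With the mouse block this call was lost (edgeR FDR 0.115), as it was with DESeq2 (FDR 0.0743) and when any of 8 single lines was left out (edgeR FDR 0.0764 to 0.104). Fcgr2b, the inhibitory Fc receptor of B cells, had 40.3 to 138 CPM in EV lines and did not pass (-0.26, edgeR FDR 1.00). Sirpa, an ITIM receptor for CD47 that did not pass the filter, had 3.48, 6.83 and 7.13 CPM in lines 1A, 1B and 1C with BCR-ABL1 and no more than 0.337 CPM in the other 9 lines. Lair1 was likewise higher in these 3 lines than in lines 2A to 2C with BCR-ABL1.

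**Figure D4:**
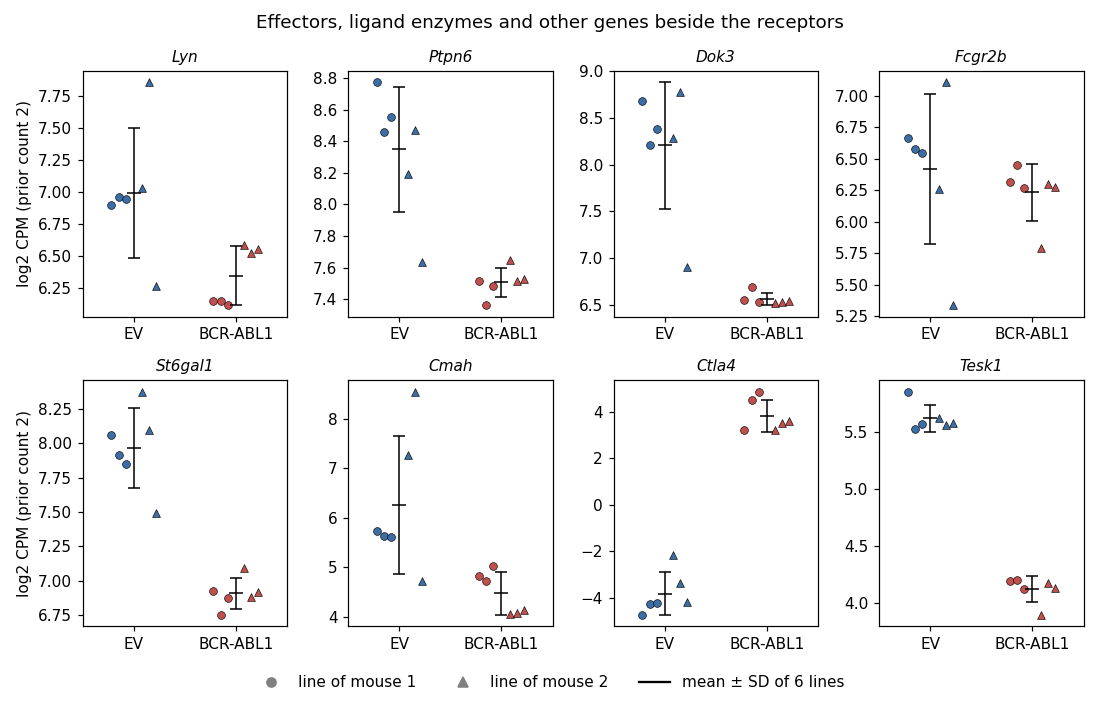
Log2 CPM (y axis, own scale in each panel) of 3 effector genes of ITIM receptors (Lyn, Ptpn6, Dok3), the inhibitory receptors Fcgr2b and Ctla4, the sialic acid enzymes St6gal1 and Cmah, and Tesk1, which overlaps Cd72. Symbols and bars are as for the receptors (circles mouse 1, triangles mouse 2, mean ± SD of 6 lines). The groups do not overlap for Dok3, St6gal1, Ctla4 and Tesk1.

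On the activating side, all 12 listed genes of the pre-B cell receptor and its signal were tested, with 1 called higher, 1 lower and a median of 0.00. The adaptor Bank1 rose (log2 fold change 2.51, edgeR FDR 8.43e-05) and the heavy chain Ighm fell (-1.07, edgeR FDR 0.00129). Of 17 near copies and activating relatives of the receptors 10 were in the table and 2 were tested, and the adaptor Tyrobp was called lower (-2.42, edgeR FDR 0.00967) at a mean of 0.682 CPM in EV lines. Among mature B cell markers 5 of 6 were tested and Ms4a1 fell. Tyrobp and Ms4a1 passed the count filter only through the EV lines where they are high, so their calls are descriptions. Among B lineage markers Dntt was called higher (edgeR FDR 0.0396, with the mouse block 0.0533) and the other 9 were not called. Itga2b, the only tested megakaryocyte marker of 5, was called lower, and the 1 tested NK marker of 4, Klrb1c, was not called over all lines. The mice differed for Klrb1c (log2 fold change 5.01 in mouse 1 and -0.94 in mouse 2, edgeR interaction FDR 0.000288), as they did for 16.9% of all tested genes.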

How the data were processed

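RNA-seq was made from 12 pre-B cell lines on strand-specific total RNA libraries, with paired-end reads. The authors deposited whole-number counts per gene for each line, not normalized and not pooled. The submitters' processing notes name FastQC 0.11.5, Trimmomatic 0.36, TopHat2 2.1.1, Bowtie2 2.3.2, featureCounts 1.5.3, edgeR 3.18.1, R 3.6.1 and GRCm38. The strand setting and the treatment of reads shared between copies are not given in the sources used here, and both could change the counts of overlapping or near-identical genes.

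Counts were analysed in R 4.3.3 with edgeR 4.0.16 (filterByExpr, TMM, quasi-likelihood glmTreat against 1.5-fold, Benjamini-Hochberg threshold 0.05), with limma 3.58.1 and DESeq2 1.42.0 beside it. Python 3.11.15 with matplotlib 3.10.9 drew the plots. The fold and the threshold are those of the study's methods. Log2 CPM used a prior count of 2, and FPKM is TMM-scaled CPM per kb of merged exons. GENCODE M21 gave symbols for 51633 of 51826 identifiers. A count of 3 was taken as the floor. Permutation tests were exact and two-sided over all 924 labelings or the 400 within mice. The fits were tested on simulated data.

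Group, digit and letter came from the sample titles. The digit was read as the mouse, because the study used 2 mice. The same mouse gave lines of both groups, and deviations from group means correlated across genes (0.0853 to 0.240 within a mouse, -0.203 to -0.0636 across mice), so mouse pairs the samples. No 2 lines agreed within sampling noise (chi-square per gene of 9.96 or more). The lines share 2 mice, so p-values measure the spread between lines.

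The members and lists were chosen with earlier results of these data known. Named are the 10 receptors, called genes of the lists, genes a count needs, Ptpn6, Lyn and Fcgr2b, and for each tested receptor the 3 most alike genes. Tesk1, Gm29439, Ceacam2, Pira2 and Sirpa, and the uncalled markers given beside a result, were named after their values were seen. Alternatives were DESeq2, a likelihood ratio fit, no change as the null, RLE size factors, no filter, a filter at a CPM of 1 in 6 lines, replicate blocks by mouse or by line number, each mouse alone and leaving out each line. Protein sequences are not used here.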

Additional observations from a re-analysis of the deposited data

Results flagged for a closer look

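Pecam1 in EV line 2C, at 32.6 CPM, was far below the other 5 EV lines, which began at 92.5 CPM: the gap to the nearest line was 0.631 of the whole log2 CPM range, above Dixon's critical value for 6 lines. Chance alone marks about 1 in 20 groups of this kind, and all 10 receptors were looked at in both groups.

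Lair1 was higher in every BCR-ABL1 line than in every EV line of mouse 1 and lower in every BCR-ABL1 line than in every EV line of mouse 2. The change in mouse 2 minus that in mouse 1 was -5.67 on the log2 scale in the edgeR interaction fitted without the count filter, at 1 to 26 counts per line. The summed myeloid markers were 0.245 to 0.433 CPM for EV and 0.182 to 0.418 CPM for BCR-ABL1 in mouse 1, against 0.695 to 1.72 CPM and 0.353 to 0.593 CPM in mouse 2, and their part in the Lair1 counts was not tested.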

How the results depend on the processing

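Cd72 was called lower in all 22 alternatives (log2 fold change -2.65 to -2.45) and Cd22 in 15 of 22 (-1.89 to -0.99). With mouse as replicate block, the paired fit, Cd22 was -1.45 (edgeR FDR 0.00815), 1126 genes were higher and 1080 lower, and no receptor's call changed, nor did it with line number as block. Members called lower numbered 3 without the filter (Cd22, Cd72, Cd300a), 1 with DESeq2, 4 in mouse 1 alone (Cd22, Cd72, Siglecg, Cd300a) and 1 in mouse 2 alone. Members called higher numbered 1 in mouse 1 alone (Lair1). Cd300a and Lair1 entered the mouse 1 fit only through the group where they are high, so their calls are no support. Over all genes, the test against no change called 3389 higher and 3897 lower, mouse 1 alone 2512 and 1877, and mouse 2 alone 614 and 408. Members whose change differed between mice numbered 0 at first (2 at an unadjusted p under 0.05), 4 without the filter (Cd22, Lair1, Pirb, Siglecg; 7.96% of all genes), and 1 (Siglecg) with the likelihood ratio fit (19.5%) and DESeq2 (21.8%). Leaving out 1 line gave 807 to 1353 genes higher and 802 to 1434 lower, 0 to 0 members higher, 1 to 3 lower, and 0 to 5 differing between mice. The 5 arose without EV 2C (Pecam1, Lair1, Pirb, Siglecg, Ceacam1), where 36% of all genes had a called difference, which also gave the 1353 and the 1434. Cd300a was the third member called lower there and without BCR-ABL1 1B, 2A, 2B or 2C. It was also called lower without BCR-ABL1 1A or 1C, where Cd22 was not. The filter let Cd300a into these fits only through the EV lines where it is high, so its calls are no support. Uncalled log2 fold changes turned sign: Btla to 0.0023 without the filter, 0.26 in mouse 2, 0.0033 without EV 2B, 0.073 without BCR-ABL1 1B and 0.056 without BCR-ABL1 1C (-0.22 to 0.073 over lines left out), Pecam1 to 0.027 with the line block, 0.037 in mouse 1 and 0.10 without EV 2B (-0.29 to 0.10 over lines left out), Pirb to 0.47 in mouse 1, and Siglecg to 0.64 in mouse 2. The cause was not tested. The design has 2 mice, and counts of at most 26 per line limit Lair1 and Cd300a.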
